A study of Mus musculus with 2 samples.

Results

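Activated, memory and helper CD4 T cells were examined in mouse spleen. They were selected on their own transcript counts, as single-cell barcodes with a CD4 T cell pattern that also carried transcripts of at least 3 of 12 activation and helper genes, and 187 of the 17850 deposited barcodes met that rule, 94 in the Vehicle library and 93 in the Glutoborin library. The genes were S100a4, Cxcr3, Itgb1, Maf, Icos, Cxcr5, Pdcd1, Tox2, Il21, Ifng, Tbx21 and Rora, each counted from 1 unique molecular identifier (UMI, 1 tagged transcript molecule). The CD4 gate behind them asked for 2 or more summed UMIs of Cd3e, Cd3d and Cd3g, at least 1 of Cd4, none of Cd8a, Cd8b1 or Foxp3 and at most 2 of Cd79a, in barcodes with 300 or more genes, 500 or more UMIs and under 10% mitochondrial UMIs.

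Both groups were wild-type (WT) mice infected with 10000 iRBCs, as the labels abbreviate them, given into the peritoneum, and their spleens were taken on day 5. The series holds no library of uninfected mice, so Vehicle values are those of infected mice. One group had Vehicle on days 2 and 4, and the other had Glutoborin on the same days, at a dose that the labels do not give. CD45+ cells were sorted from the spleens and sequenced with a 10x Genomics droplet kit, 1 library per group. Age, sex, strain and the number of mice behind each library are not given in the sources used here, so no spread between animals can be had, no p-value is given, and every interval covers counting error only. Treatment and library cannot be told apart.

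A naive CD4 T cell recirculates through spleen and lymph nodes with homing receptors such as CCR7. After meeting antigen it lowers these, raises CD44, and takes on a helper programme. T helper 1 (Th1) cells use the transcription factor T-bet (Tbx21), the chemokine receptor CXCR3 and interferon gamma (Ifng), while follicular helper cells use CXCR5, PD-1 (Pdcd1) and interleukin 21 to help B cells. Type I interferon, sensed by nearly every cell, switches on antiviral genes through factors that bind interferon-stimulated response elements.

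The libraries held 48526451 UMIs in 8204 barcodes (Vehicle) and 56862506 UMIs in 9646 barcodes (Glutoborin), of which 6688 and 9253 passed the quality limits. Barcodes at or over the mitochondrial limit made up 18.5% of the Vehicle library and 4.07% of the Glutoborin library, and 1 and 0 of those met the rest of the rule. The libraries shared 24 barcode sequences, none of them a member in both. Members held 906853 UMIs in the Vehicle library (median 7271.5 per cell) and 754093 in the Glutoborin library (median 6155). A single Vehicle barcode with 70765 UMIs made up 7.80% of the first sum.

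The detection of the 12 genes describes how the cells were chosen and is no finding. Icos, a costimulatory receptor of activated T cells, had a UMI in 74.5% of Vehicle and 66.7% of Glutoborin members. Maf, a transcription factor of helper cytokine programmes, was detected in 64.9% and 69.9%. Cxcr3 was found in 55.3% and 59.1%, Itgb1, an integrin chain, in 54.3% and 66.7%, and Rora in 43.6% and 41.9%. These were the leading genes in both libraries. S100a4, a calcium-binding protein of memory cells, was detected in 39.4% and 36.6%, Ifng in 28.7% and 23.7%, and Tbx21 in 22.3% and 24.7%. Follicular helper genes were rarer, with Tox2 in 18.1% and 11.8%, Pdcd1 in 14.9% and 12.9%, and Il21 in 4.26% and 3.23%. Cxcr5 was detected in 11.7% and 23.7%, below its shares in B cells of the same libraries (41.3% and 35.5%, median 4774 UMIs per B cell in the Vehicle library), which express this receptor. For Icos the B cell shares were 0.442% and 0.328%.

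Genes outside the rule fitted the label in part. Cd44 had a UMI in 51.1% of Vehicle and 60.2% of Glutoborin members, and in 2.60% and 4.93% of the CD4 gate cells that carried none of the 12 genes, called marker-negative CD4 T cells here (269 and 345 cells, median 5769 and 4951 UMIs). Ccr7 showed the opposite order, with 39.4% and 30.1% of members against 71.4% and 71.3% of marker-negative cells. Ikzf2, which encodes Helios and is known from regulatory T cells, was detected in 45.7% and 63.4% of members, although a Foxp3 UMI excluded a cell. The transcript of Il17a, the T helper 17 cytokine, had 0 UMIs in either library. Il10 had 3 and 2 UMIs, so Il17a and Il10 were at or close to the limit of what these cells could show. Il4 was low, with 18 and 13 UMIs, in 7.45% and 9.68% of members against 0.372% and 0% of marker-negative cells.

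**Figure D1:**
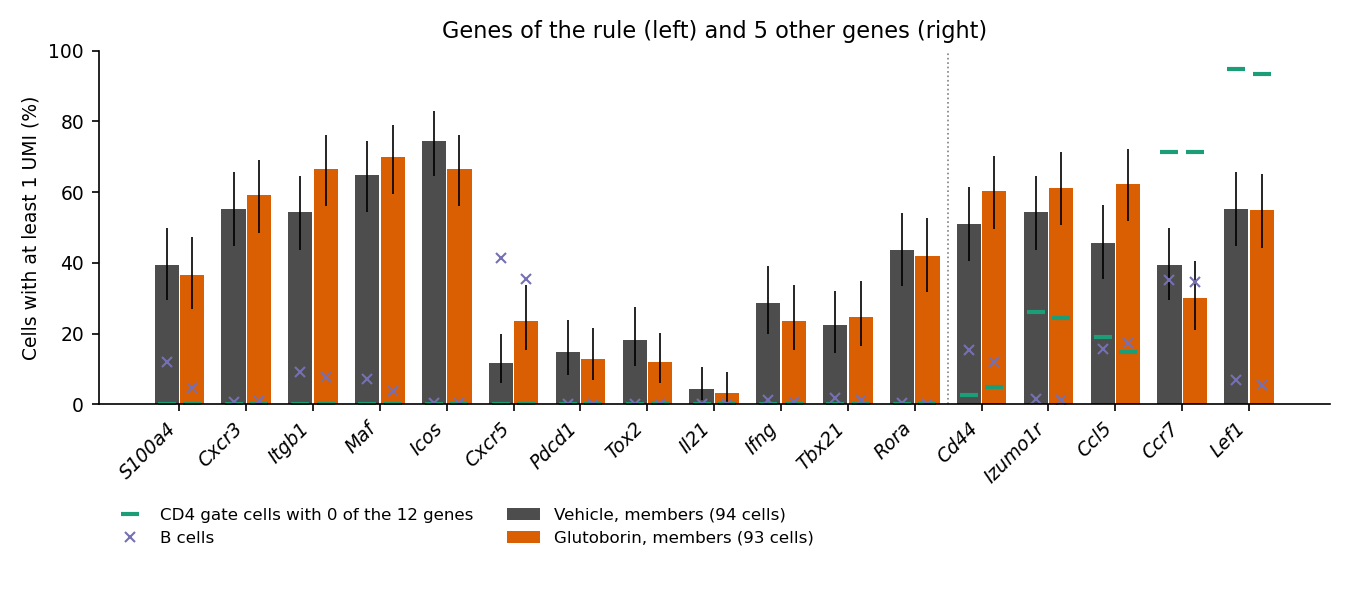
Share of members with at least 1 UMI of each gene (bars, a colour per library, with exact 95% binomial intervals as black lines), beside marker-negative CD4 T cells (green dashes) and B cells (purple crosses) of the same library. The 12 genes of the rule stand on the left, where marker-negative cells are at 0 by construction, and among the other genes on the right Cd44 is high and Ccr7 low in members (51.1% and 39.4% in the Vehicle library).

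Some members also carried transcripts of other cell types. Tyrobp, a signalling adaptor of NK and myeloid cells, reached 5 UMIs or Lyz2, myeloid lysozyme, reached 10 in 10 Vehicle and 8 Glutoborin members, called mixed barcodes here, with 16.6% and 13.1% of the member UMIs. NK receptor genes were high in 4 of these in the Vehicle and 2 in the Glutoborin library. All mixed barcodes together held 1031 of the 1093 Lyz2 UMIs among Vehicle members, all 241 of the chemokine gene Cxcl9 and 793 of the 1318 of Ccl5. The doublet caller Scrublet marked 2 and 3 of them. Levels are given as CPM, a gene's UMIs in every 1000000 UMIs that a group of cells holds. Without mixed barcodes the summed NK list stood at 148 CPM among Vehicle members and 195 CPM among Glutoborin members, with Klra8 and Klra7 at 0 in the Vehicle and Ncr1 and Klra4 at 0 in the Glutoborin library, and the monocyte list stood at 322 and 270 CPM. Values without the mixed barcodes are given below beside results whose call or direction they change. A further 28 members in each library carried a UMI of Klrb1c, Ncr1, Zbtb16, Trdc or Tcrg-C1, genes of innate-like T cells, so the class is wider than conventional helper cells.

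Members differed from marker-negative cells of their own library in genes that the rule did not use. Of 4985 genes with enough counts (50 UMIs over both kinds of cells in each library), 202 were 2-fold or more higher in members in both libraries, which is 4.05%, and 49 were lower in both, which is 0.983%. Because the cells were chosen for activation genes, these ratios describe the class and are no test of it. T helper 1 and cytotoxic genes stood out, with 14 of 16 measured genes higher in both libraries and medians of 4.34 and 4.29 on the log2 scale against 0.20 in each library over all measured genes. Without mixed barcodes 12 of 14 were higher, with medians of 3.65 and 3.58, beside 3.57% of all measured genes higher and 1.13% lower. The 28 innate-like members of each library held 29.7% (Vehicle) and 29.5% (Glutoborin) of the member UMIs. Outside mixed barcodes they held 229 of 525 and 439 of 564 Ccl5 UMIs, and 116 of 181 and 11 of 55 Gzmb UMIs. Their part in the ratios of this list was not tested.

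Cxcr6, a chemokine receptor of effector and tissue-homing T cells, had 192 UMIs in Vehicle members and 0 in marker-negative cells, which makes it at least 111-fold higher (against 3 counts over the group). In the Glutoborin library it had 210 UMIs against 3, a log2 ratio of 7.35 (95% interval 5.79 to 9.64). It was thus nearly absent from marker-negative cells. Nkg7, a cytotoxic granule protein, stood at 593 CPM in Vehicle members and 15.96 in marker-negative cells, and at 610 and 13.6 CPM in the Glutoborin library. Il2rb, a chain of the interleukin 2 and 15 receptor, stood at 356 and 12.1 CPM in the Vehicle and 383 and 17.03 CPM in the Glutoborin library. Xcl1, a chemokine that draws cross-presenting dendritic cells, had 183 CPM in Vehicle members and 3 UMIs in marker-negative cells, a log2 ratio of 6.58 (5.01 to 8.87), and 204 CPM against 1 UMI in the Glutoborin library, 8.49 (5.99 to 13.80). These genes kept these directions without mixed barcodes. Gzma, by contrast, was at 527 CPM in Vehicle members but at 27.7 CPM once mixed barcodes were left out, near the 23.6 CPM of marker-negative cells, so its transcripts came mostly from mixed barcodes. Among the genes that named the class by size were also Ccl5, Ahnak, Bhlhe40, S100a6, Klrk1, Gzmb, Slamf7, Cd160 and Hopx, with log2 ratios from 4.20 to 6.62 in the Vehicle library for those with a UMI in marker-negative cells. Ahnak, Klrk1, Slamf7 and Cd160 had 1 to 3 UMIs there, so their ratios are loosely bounded, as for Cd160 at 6.62 (4.09 to 11.95). Lyz2 also met the naming rule, at 3.87 and 3.69, and fell to -0.01 and -0.20 without mixed barcodes.

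Follicular helper genes were raised less uniformly, with 6 of 15 measured genes higher in both libraries and medians of 0.97 and 1.01. Sh2d1a, which encodes the adaptor SAP needed for T cell help to B cells, had log2 ratios of 1.26 and 1.38. Cd200 stood at 1.95 and 1.64, and P2rx7, a purinergic receptor, at 3.22 and 4.06. Regulatory-type genes were also high: Ctla4, an inhibitory receptor, was 3.02 above marker-negative cells in the Vehicle and 3.70 in the Glutoborin library on that scale. In the memory and effector list 13 of 22 measured genes were higher in both libraries, Cd44 by 3.93 and 3.48 among them. In the S phase list 11 of 13 were higher in both, but few cells weighed on that list. The cells described below as members in division, 4 Vehicle and 8 Glutoborin, held 100 of 102 and all 177 UMIs of the replication factor Pclaf. Without them 7 of the 17 S phase genes measured for the treatment comparison kept enough counts. Their part in the S phase ratios of the class was not tested.

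Genes of naive and recirculating cells ran the other way, with 9 of 16 measured genes lower in both libraries and none higher. Igfbp4 stood at 57.3 CPM in Vehicle members and 471 CPM in marker-negative cells, and at 42.4 and 503 CPM in the Glutoborin library. Lef1, a transcription factor of naive T cells, stood at 196 against 626 CPM and at 178 against 710 CPM. Dapl1 had 25.4 against 222 CPM and 49.1 against 191 CPM. All 3 were lower in members of both libraries by more than 2-fold. Ly6c1, Pik3ip1, Pdlim4, Bcl2, Tsc22d3, Cmah and Als2cl completed the lower genes named by size, with log2 ratios from -3.39 to -1.37 in the Vehicle library. Type I interferon-induced genes, in contrast, were not a mark of the class: 1 of 42 was higher in both libraries and none lower.

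**Figure D2:**
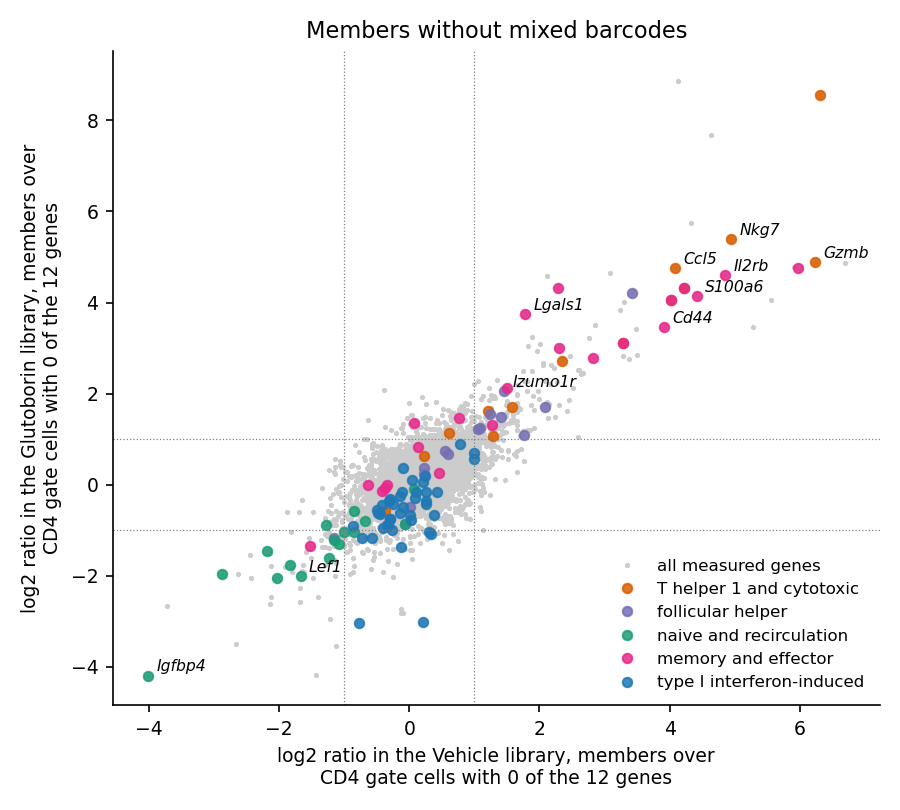
Each point is a gene measured in both libraries, with the log2 ratio of members over marker-negative CD4 T cells in the Vehicle library (x) and the Glutoborin library (y), mixed barcodes left out and genes without a UMI in a marker-negative group, such as Cxcr6, not drawn. T helper 1 and cytotoxic genes lie at the upper right (medians 3.65 and 3.58) and genes of naive cells at the lower left (medians -1.20 and -1.26).

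Members carried different helper genes. Cells with at least 2 of the 3 genes Cxcr3, Tbx21 and Ifng, and more of these than of the 4 genes Cxcr5, Pdcd1, Tox2 and Il21, are called the Th1 side, and the reverse the follicular helper side. They are ranges of a count and not cell types. Without mixed barcodes the Th1 side held 23 of 84 Vehicle members, 27.4% (exact 95% interval 18.2 to 38.2), and 25 of 85 Glutoborin members, 29.4% (20.02 to 40.3). The follicular helper side held 5 of 84, 5.95% (1.96 to 13.3), and 10 of 85, 11.8% (5.79 to 20.6). Both pairs of intervals overlap, and a difference in these shares between the treatments was not tested. At least 1 gene of each set was found in 22 of 84 and 10 of 85 members, and no gene of either in 16 and 7. Exactly 2 genes of a set, the fewest that count, put 19 Vehicle and 22 Glutoborin members on their side. With innate-like members left out (other mixed barcodes kept), the Th1 side took 14.5% and 16.1% of members, where it took 28.7% and 29.0% of all members.

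Genes that did not define the sides differed between them. Cxcr6 stood at 616 CPM on the Th1 side and had 0 UMIs on the follicular helper side of the Vehicle library, where 3 UMIs would be 83.2 CPM, and at 510 CPM and 0 UMIs in the Glutoborin library. Nkg7 stood at 942 against 166 CPM and at 1024 against 24.6 CPM. Id2, a transcriptional regulator of effector cells, was also higher on the Th1 side, at 1310 against 83.2 CPM and 873 against 98.5 CPM. Tcf7, which encodes TCF-1, a factor of naive, memory and follicular helper cells, ran the other way, at 73.6 against 1137 CPM in the Vehicle and 79.4 against 530 CPM in the Glutoborin library. Izumo1r, which encodes folate receptor 4 on helper and regulatory subsets, followed Tcf7 with 124 against 693 CPM and 113 against 431 CPM. Ikzf2 stood at 211 against 1137 CPM in the Vehicle library, with 41 UMIs in 4 follicular-side cells. In the Glutoborin library it stood at 238 against 172 CPM. Genes of innate-like cells also lay on the Th1 side. Zbtb16, a transcription factor of NKT cells, had 17 UMIs there in the Vehicle and 18 in the Glutoborin library, and Klrd1, an NK receptor chain, had 35 and 17, where both had 0 UMIs on the follicular helper side of either library. Their part in the differences between the sides was not tested. The follicular values rest on 5 and 10 cells.

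Pairs of genes within the rule are given as a description only, since these genes chose the cells. Of the 27 Vehicle members with an Ifng UMI, 77.8% also had Cxcr3, and of the 22 Glutoborin members with Ifng, 81.8% did. Maf was detected in 90.9% of the 11 Vehicle and of the 22 Glutoborin members with Cxcr5. Tbx21 was detected in 27.3% of those Vehicle members and in none of the Glutoborin ones, and Cxcr3 in 54.5% and 31.8%.

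Glutoborin was compared with Vehicle first for how many CD4 T cells were members. They made up 17.6% of 534 CD4 gate cells in the Vehicle library (exact 95% interval 14.5 to 21.1) and 14.8% of 630 in the Glutoborin library (12.1 to 17.8). Every cell was also thinned to 2000 UMIs and the whole gate applied anew to the thinned counts. Members were then 20 of 278 CD4 gate cells in the Vehicle library, 7.19% (4.45 to 10.9), and 15 of 326 in the Glutoborin library, 4.60% (2.60 to 7.48). The intervals overlap in both cases, and a difference in abundance between the treatments was not tested. Just inside the limit of the rule, 37 Vehicle and 25 Glutoborin members had 3 of the 12 genes, and just outside it 43 and 51 cells had 2. Their memory and effector transcripts had per-cell medians of 60.1 and 65.1 UMIs per 10000 inside and 46.5 and 56.2 outside.

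Type I interferon-induced genes were lower nearly throughout in Glutoborin members. Of 4485 measured genes (50 UMIs over both libraries), 225 were 1.5-fold or more higher in Glutoborin members, 5.02%, and 300 were lower, 6.69%. Of the 47 measured type I genes none was higher and 46 were lower, with a median log2 ratio of -1.20. Sp100, at -0.40, was the remaining gene. Without mixed barcodes 40 of 42 were lower with a median of -1.09, where 5.36% of all measured genes were higher and 6.56% lower. With members restricted to those with 4 or more of the 12 genes the median was -0.76.

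Isg15, a ubiquitin-like protein that is conjugated to others after interferon exposure (chr4:156199424-156200818, minus strand, GRCm38), had 514 UMIs in Vehicle members and 84 in Glutoborin members, or 567 and 111 CPM. It was detected in 76 of 94 and 40 of 93 cells. The log2 ratio was -2.35 (-2.70 to -2.01), and -2.03 without mixed barcodes. Detection and level thus pointed the same way. Ifit1, which binds viral RNA (chr19:34640871-34650009, plus strand), had 183 and 19 UMIs, in 54 and 11 cells, a log2 ratio of -3.002 (-3.77 to -2.32). Ifit3, its partner (chr19:34583531-34588731, plus strand), had 171 and 28 UMIs, a ratio of -2.34 (-2.98 to -1.76). Both were thus lower in the Glutoborin library by more than 4-fold. Oasl2, of the oligoadenylate synthetase family (chr5:114896936-114912234, plus strand), had 125 and 10 UMIs, a ratio of -3.38 (-4.47 to -2.45). Rsad2, which encodes the antiviral enzyme viperin (chr12:26442746-26456452, minus strand), had 66 and 6 UMIs, a ratio of -3.19 (-4.69 to -1.995). In all 5 genes the interval lay below 0.

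The regulators of the pathway were lower by less than Isg15, Ifit1, Ifit3, Oasl2 and Rsad2. Irf7 and Usp18 still lay below the median of the type I list, -1.20, and Irf9 lay above it. Irf7, which amplifies the type I response, had 284 and 96 UMIs, a log2 ratio of -1.30 (-1.65 to -0.96). Irf9, a DNA-binding subunit of the factor that type I interferon activates, had 84 and 45 UMIs, at -0.63 (-1.19 to -0.10). Usp18, which removes ISG15 and dampens receptor signalling, stood at -1.73 (-2.54 to -0.99). Among the most abundant genes of the list, Ifi27l2a stood at -0.63, Ifitm3 at -0.98 and Ifi203 at -0.72, beside Sp100. Ifitm3 was confined to 38 Vehicle and 18 Glutoborin cells, and turned to 0.11 with 4 or more of the 12 genes required.

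**Figure D3:**
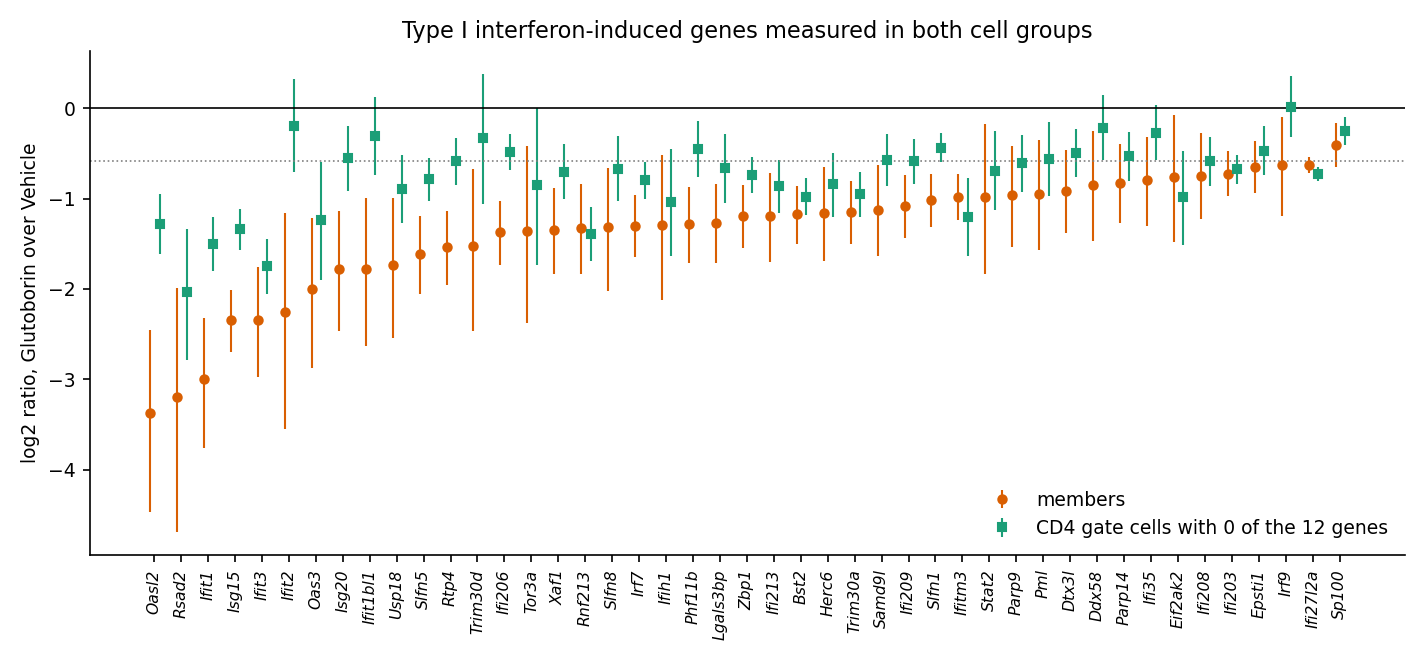
Log2 ratio of Glutoborin over Vehicle (y) for type I interferon-induced genes measured in both cell groups and reported here (x), in members (orange) and in marker-negative CD4 T cells (green squares), with exact 95% intervals of counting error and 1 library per group. Every member value drawn lies below 0, from -3.38 (Oasl2) to -0.40 (Sp100).

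Promoters of the list were searched for the interferon-stimulated response element. Its core was taken as GAAA, any 2 bases and GAAA again, on either strand (TTTC, any 2 bases and TTTC where it lies on the other strand), in the RefSeq promoters of GRCm38.p6, 250 bases before to 50 after each start. Oasl2, the lowest of the list, gave no match with a window wholly before the start. The following 30-base windows come from the 5 type I genes with the lowest ratios among those that gave such a window. They are shown 5′ to 3′ on the gene's strand, with the nearest such match to the start in capitals, because they join low ratios of the list with the element.
Rsad2: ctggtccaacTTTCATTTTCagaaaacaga
Ifit1: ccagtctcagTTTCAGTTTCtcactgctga
Isg15: aaaggaaaccGAAACAGAAAatagctctgg
Ifit3: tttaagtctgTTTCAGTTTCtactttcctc
Oas3: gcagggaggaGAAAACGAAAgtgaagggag
The windows lie at chr12:26456553-26456582 (minus strand), chr19:34640794-34640823 (plus), chr4:156200865-156200894 (minus), chr19:34583397-34583426 (plus) and chr5:120777715-120777744 (minus), all ahead of the start.

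A match was present for 24 of the 45 type I genes with a promoter in the table (58 are listed), 53.3%, and for 1079 of all 27025 genes, 3.99%. Over single promoters it was 1131 of 32851, 3.44%. Among genes measured in members, 47 of 243 that were 1.5-fold lower held it, 19.3%, and 8 of 174 that were higher, 4.60%, where 179 of all 3612 did, 4.96%. Leaving out both interferon lists, 20 of 195 lower genes held it, 10.3%. Within the type I list the element did not divide the genes by much: the median log2 ratio was -1.29 for 21 genes with it and -1.12 for 17 without it in this window. A match is a description of letters and says nothing of which factor bound there.

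The lower type I level was spread over cells. Summed type I transcripts made up between 8.48 and 481 UMIs per 10000 in single Vehicle members, with a median of 111, and between 11.2 and 227 in Glutoborin members, with a median of 57.1. The ranges overlap, and the upper quartile of the Glutoborin members (75.02) lay below the lower quartile of the Vehicle members (80.2). Members with 3 of the 12 genes had medians of 108 and 59.6, and those with 4 or more had 115 and 57.0, so the medians were alike at both depths of the rule.

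Marker-negative CD4 T cells also had lower type I transcripts in the Glutoborin library, with per-cell medians of 95.2 and 58.5, and so did CD4 gate cells with a Foxp3 UMI (47 and 45 cells), at 113 and 67.8. Summed over cells, 33 of 52 measured type I genes were lower in marker-negative cells, where 4.21% of all measured genes were lower and 3.13% higher, and 19 of 35 in Foxp3 cells, where 8.15% were lower and 5.38% higher. Over the 46 genes measured in both, the median was -1.20 in members and -0.67 in marker-negative cells, and 42 genes were further down in members, as were 2089 of all 4283 genes measured in both. The interval of the difference lay below 0 for 20 of the 46, against 224 of the 4283, 5.23%. Without mixed barcodes it did so for 15 of the 46 and for 224 of the 4283, the same number of genes but not a count of shared ones. For Ifit1 the ratio was -3.002 in members and -1.50 in marker-negative cells, a difference of -1.50 (-2.24 to -0.76). For Oasl2 it was -3.38 and -1.28, a difference of -2.10 (-3.09 to -1.12). With 4 or more of the 12 genes required the median difference shrank from -0.52 to -0.09. The larger ratio in members, taken over summed counts, thus depended on where the rule is set. Per cell, members with 4 or more genes had medians of 115 and 57.0, and marker-negative cells had 95.2 and 58.5. The Vehicle barcode with 70765 UMIs is in that smaller set, and its part in the change was not tested.

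**Figure D4:**
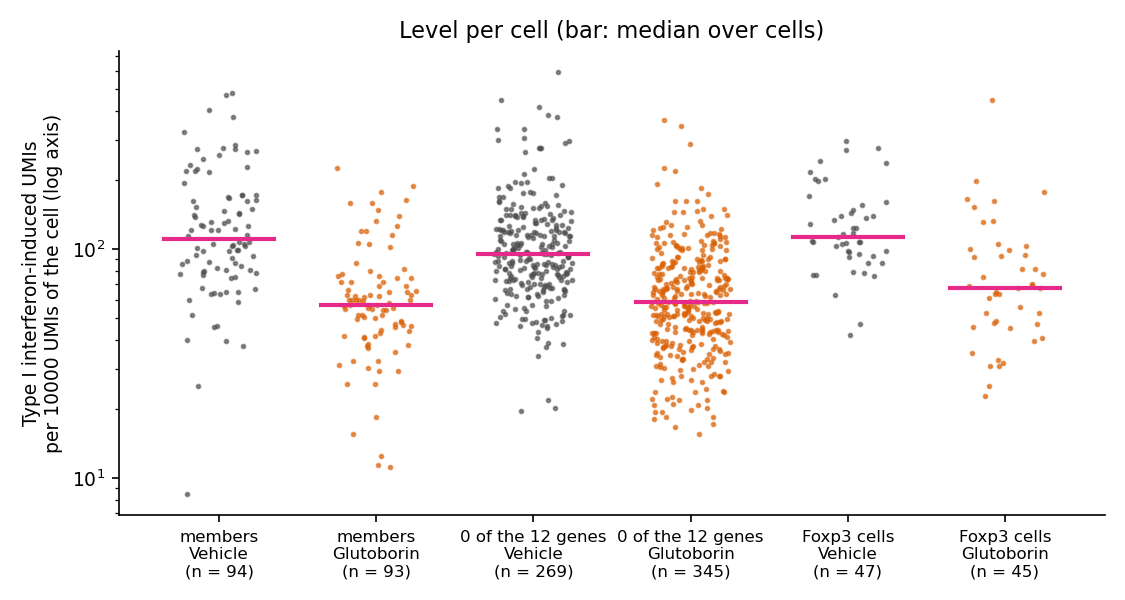
Type I interferon-induced UMIs per 10000 UMIs of each cell (log axis) by library and cell group, each point a cell and each bar the median. Member medians are 111 in the Vehicle and 57.1 in the Glutoborin library, and marker-negative cells stand at 95.2 and 58.5.

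Genes induced by interferon gamma were lower in part. Of 25 measured genes 15 were lower and none higher, with a median log2 ratio of -0.78 (15 of 24 and -0.80 without mixed barcodes). Gbp2, a guanylate-binding protein of defence against intracellular microbes, had 315 and 86 UMIs, in 59 and 30 cells, a ratio of -1.61 (-1.97 to -1.26). Ifi47, an immunity-related GTPase, had 398 and 195 UMIs, at -0.76 (-1.02 to -0.51), and Irf1 had 152 and 65, at -0.96 (-1.40 to -0.53). All 3 intervals lay below 0. The immunoproteasome genes Psmb8 (-0.28), Psmb9 (-0.41), Psme1 (-0.33) and Psme2 (-0.24), which shape peptides for antigen presentation, did not reach 1.5-fold. Ifng itself had 62 and 55 UMIs, a ratio of 0.09 (-0.46 to 0.64), as a gene of the rule given only as a level. The largest ratio of the list belonged to Cxcl9, with 241 and 2 UMIs, at -6.65 (-9.70 to -4.78), all of the Vehicle ones in 3 cells that were mixed barcodes. Cfb had 52 and 1 UMIs, at -5.43 (-10.77 to -2.89), and Ifi205 had 56 and 3, at -3.96 (-6.28 to -2.33), detected in 7 and 5 Vehicle cells. Without mixed barcodes 3 and 0 UMIs of Cfb and 1 and 0 UMIs of Ifi205 remained, so both ratios rest on mixed barcodes, as for Cxcl9. Ifi211, a relative of Ifi205, stood at -2.44 and, without mixed barcodes, at -1.06 (-2.91 to 0.55), and Ube2l6, the conjugating enzyme for ISG15, at -2.37 and -1.69.

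Helper programme genes did not move together. Of 19 measured T helper 1 and cytotoxic genes 1 was higher and 3 were lower, with a median of -0.08, and of 15 follicular helper genes 1 was higher and none lower, with a median of -0.03. Without mixed barcodes 2 of 16 T helper 1 and cytotoxic genes were higher and 2 lower, with a median of 0.23, and of the 15 follicular helper genes none was higher and 1, Tcf7 at -0.59, was lower. Gzmb, the serine protease granzyme B, had 214 and 62 UMIs, in 16 and 10 cells, a log2 ratio of -1.52 (-1.95 to -1.11). It was lower in the Glutoborin library, but few cells carried it, and 97.2% of its Vehicle UMIs came from 10 barcodes. Ly6c2 had 448 and 132 UMIs, at -1.50, and at -0.50 without mixed barcodes, which held 322 of the Vehicle ones. Bhlhe40, a transcription factor of cytokine-producing helper cells, was higher, with 58 and 92 UMIs, at 0.93 (0.44 to 1.43). Izumo1r, the higher follicular gene, had 190 and 254 UMIs, in 51 and 57 cells, at 0.68 (0.41 to 0.96), and at 0.57 without mixed barcodes, short of 1.5-fold. Ccr9, the receptor that guides T cells to the gut, had 8 and 45 UMIs, in 3 and 19 cells, at 2.76 (1.66 to 4.05), and Atp8a2 had 12 and 38, at 1.93 (0.96 to 3.001). These last genes were higher in the Glutoborin library at low counts.

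In the naive list 3 of 16 measured genes were higher (Ccr9, Dapl1 and Bach2) and 1 was lower. Dapl1 stood at 0.95 and Bach2, a repressor of effector differentiation, at 0.78, each with fewer than 40 UMIs in either library. Tmem176a, of the T helper 17 list, stood at -1.16 and turned to 0.67 without mixed barcodes. No measured gene of the inhibitory receptor or T helper 2 lists reached 1.5-fold with all members, and without mixed barcodes Cd160, an inhibitory receptor, did, at 0.59 (0.03 to 1.15).

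Genes of dividing cells and several memory genes were higher in the Glutoborin library, and both rested on few cells. All 6 measured genes of the G2 and M phase list were higher, with a median of 0.87. Ube2c, which drives exit from mitosis, had 16 and 79 UMIs, a log2 ratio of 2.57 (1.78 to 3.45). A single Vehicle cell held 13 of the 16 and a single Glutoborin cell 54 of the 79, a spread between cells that the interval leaves out. Without the deepest member barcode, a Vehicle one, the ratio was 4.87. Birc5, a mitotic regulator also called survivin, had 38 and 83, at 1.39 (0.82 to 1.99). The histone genes Hist1h2ae (2.32), Hist1h1b (1.97) and Hist1h2ap (1.73), the histone chaperone Asf1b (1.51) and the replication factor Pclaf (1.06) complete the higher genes named by size. Cells with 10 or more UMIs of the G2 and M phase list, called members in division, numbered 4 of 94 in the Vehicle library, 4.26% (1.17 to 10.5), and 8 of 93 in the Glutoborin library, 8.60% (3.79 to 16.2). They held 399 of the 484 and 806 of the 867 UMIs of that list. With a limit of 5 UMIs the order turned, at 10 of 94 Vehicle members, 10.6% (5.22 to 18.7), and 9 of 93 Glutoborin members, 9.68% (4.52 to 17.6). The intervals overlap at both limits, and a difference in the share of dividing members between the treatments was not tested.

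Lgals1, which encodes the lectin galectin-1 of effector and regulatory T cells (chr15:78926725-78930465, plus strand), had 404 UMIs in Vehicle and 774 in Glutoborin members, or 445 and 1026 CPM, in 54 and 49 cells. Its log2 ratio was 1.20 (1.03 to 1.38), and 1.61 (1.40 to 1.82) without mixed barcodes. Members in division held 9 of the 404 Vehicle UMIs and 542 of the 774 Glutoborin UMIs, 240 of the latter in 1 cell. Members with 5 or more UMIs of the G2 and M phase list held 117 of the 404 and 555 of the 774. Without members in division the ratio was -0.40 (-0.64 to -0.16), so the direction turned. The memory and effector list followed it: 5 of 23 measured genes were higher and 2 lower, with a median of 0.30, and the median was -0.17 without members in division. Without mixed barcodes 8 of 22 were higher and 1, Ly6a, lower, with a median of 0.29. S100a10 went from 0.61 to 0.04, Anxa2 from 0.77 to -0.40, Crip1 from 0.60 to -0.24 and Emp3 from 0.62 to 0.11 when members in division were left out, where Anxa2 stood at 1.56 without mixed barcodes. The lower memory genes were Ly6a, an interferon-responsive surface protein, with 1262 and 641 UMIs (-0.71), and Zeb2 (-1.13), in 14 and 10 cells. Zeb2 kept 7 and 3 UMIs without mixed barcodes, at -1.02 (-3.60 to 1.12), an interval that spans 0. The type I genes did not follow the dividing cells, with a median of -1.24 without them, and neither did Ccr9, at 2.62.

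**Figure D5:**
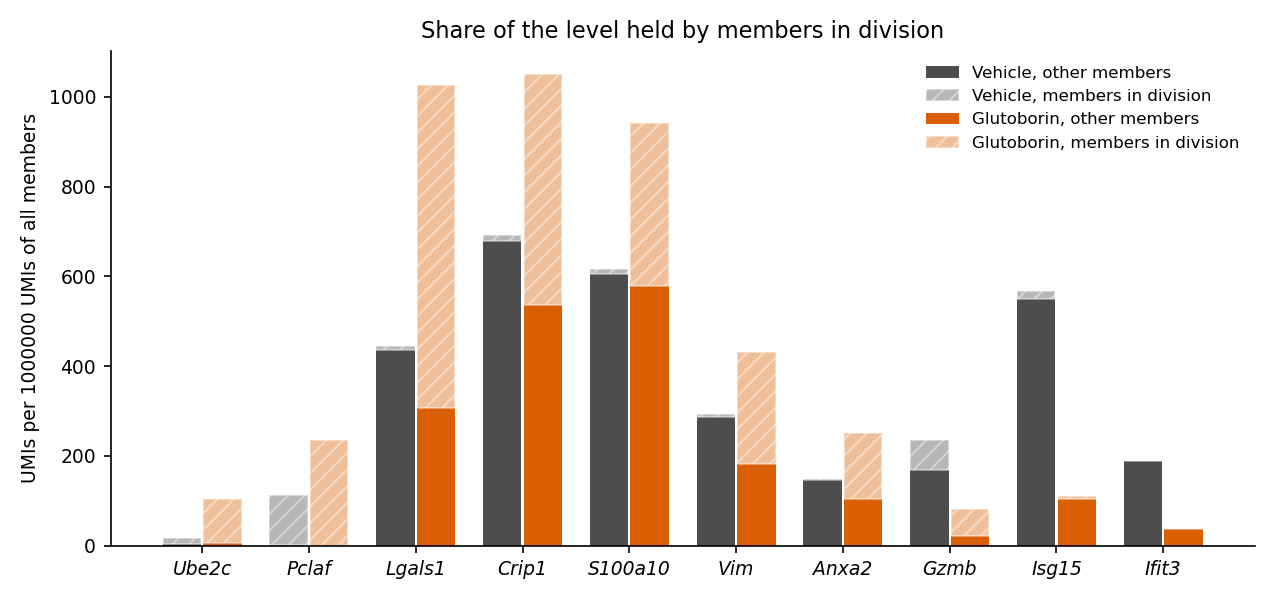
Level of each gene in UMIs per 1000000 UMIs of all members (y), by library, split into members in division (hatched, 4 Vehicle and 8 Glutoborin cells) and other members (solid). Of the Lgals1 UMIs in the Glutoborin library 542 of 774 lie in the hatched part, against 9 of 404 in the Vehicle library.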

How the data were processed

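The data are droplet single-cell RNA counts of CD45+ spleen cells, 1 library of the Vehicle group and 1 of the Glutoborin group. The authors deposited raw UMI counts per gene and barcode as matrices. The submitters' processing notes list mm10, Seurat (4.3.0) and Cell Ranger (6.0.1), whereas the header of each matrix gives 6.1.2 as the Cell Ranger version. No further filter by the authors is given in the sources used here, and 0 columns of per-sample values were left unused.

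Cells were selected by the stated rule with Python 3.11.15, numpy 2.4.6, scipy 1.17.1 and pandas 2.3.3. UMIs were summed over the cells of a class and scaled to 1000000 UMIs of that class (CPM). Ratios carry the exact 95% interval of a ratio of 2 Poisson counts, shares carry Clopper-Pearson intervals, and differences of log2 ratios a normal interval from 4 Poisson counts. Doublets were scored with Scrublet in scanpy 1.11.5 and kept. PCR duplicates are collapsed in UMIs, but intervals and the floor of 3 counts cover counting error only.

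A gene was measured from 50 summed UMIs and counted as different from 1.5-fold (treatment) or 2-fold in both libraries (class). Genes of the rule and gate were left out of the list counts. Named were the 10 genes on each side of the treatment ratio and the 15 higher and 10 lower genes of the class contrast with the interval bound farthest from no change, at 50 CPM or more for treatment, list members past the fold, and the 6 most abundant genes of each interferon list. Some genes that met this rule are not reported here. A few more were named as examples after their values were seen. The members, the 18 gene lists and 9 marker lists were chosen with earlier results of these data known. Mixed barcodes and members in division were defined after seeing the data. The procedure was tested on simulated counts. These were Poisson draws, so they cannot show how intervals fare where a few cells hold most UMIs of a gene.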

Additional observations from a re-analysis of the deposited data

Results flagged for a closer look

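Lgals1 was higher in members of the Glutoborin library (log2 ratio 1.20) and lower in marker-negative CD4 T cells of the same library (-0.35), a difference of 1.56 on the log2 scale. It stands here because the 2 cell groups, with 1 library each per treatment, moved in opposite directions. Lgals1 was not alone in this. Hmgb2 stood at 0.80 in members and -0.24 in marker-negative cells, and Stmn1 at 0.75 and -0.67. Others ran the other way, such as Tcf7 at -0.47 and 0.21 and Socs3 at -0.89 and 0.43. The Lgals1 difference was not tested across animals. Without the members in division the Lgals1 ratio in members was -0.40.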

How the results depend on the processing

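Of 20 alternatives, 16 were planned and 4 were added after seeing the data. They gave 181 values for the main results, of which 130 moved by less than the stated limits (1.5 times for counts of genes, the counting interval for shares). Of 38 named treatment genes past 1.5-fold, 24 kept their direction under every alternative that gave a value and 14 also kept the fold. No paired analysis was possible because each group has 1 library. Where a value below differs from the one reported, the cause was not tested unless the setting has fewer cells or genes by construction. Depth limits most what thinning can show, since only 20 and 15 members remain.

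The member share of the CD4 gate was 25.7% (Vehicle) and 22.9% (Glutoborin) with 2 or more of the 12 genes, 10.7% and 10.8% with 4 or more, and 7.19% and 4.60% after thinning. Members on the Th1 side took 19.7% and 18.8% with 2 or more genes, 43.9% and 39.7% with 4 or more, 5.0% and 13.3% after thinning, 14.5% and 16.1% without innate-like cells and 13.3% in the Glutoborin library with Il2ra and Ikzf2 at 0. The follicular helper side took 0% of Glutoborin members after thinning.

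Genes higher in Glutoborin members numbered 4 after thinning, 129 with Il2ra and Ikzf2 at 0, 744 when measured from 20 UMIs, 63 from 100 UMIs, 26 at 2-fold and 139 without mixed barcodes and members in division. Genes lower numbered 17 after thinning, 752 from 20 UMIs, 119 from 100 UMIs and 91 at 2-fold. In the class contrast, genes higher in both libraries numbered 17 after thinning, 115 with Cd79a at 0, 99 with Il2ra and Ikzf2 at 0, 441 from 20 UMIs, 102 from 100 UMIs and 124 without mixed barcodes and members in division. Genes lower in both numbered 28 with 2 or more of the 12 genes, 85 when scaled without mitochondrial, ribosomal, immunoglobulin and haemoglobin genes, and 91 from 20 UMIs.

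The type I median was -0.76 with 4 or more of the 12 genes, -1.09 without Scrublet doublets, -1.45 with Cd79a at 0, -1.38 without innate-like cells, -1.47 with Il2ra and Ikzf2 at 0, -1.29 from 20 UMIs, -1.09 without mixed barcodes and -1.31 without the deepest barcode. Its difference from marker-negative cells was -0.094 with 4 or more genes, -1.10 after thinning, -0.42 without Scrublet doublets, -0.80 with Cd79a at 0, -0.66 without innate-like cells, -0.85 with Il2ra and Ikzf2 at 0, -0.42 without mixed barcodes and -0.63 without the deepest barcode.

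Treatment ratios of single genes turned as follows. With 4 or more of the 12 genes Ifitm3 was 0.11, Tmem176a 1.19 and Zeb2 0.96. After thinning Lgals1 was -0.14, Ifitm3 0.42, Izumo1r -1.25, Bach2 -0.58 and Crip1 -1.58. With Cd79a at 0 Hist1h2ae was -0.62, Hist1h2ap -0.22 and Crip1 -0.28. Without innate-like cells Dapl1 was -0.41. With Il2ra and Ikzf2 at 0 Hist1h2ae was -1.34, Hist1h2ap -2.02, Dapl1 -0.55, S100a10 -0.23, Crip1 -0.24 and Anxa2 -0.21. Without mixed barcodes Tmem176a was 0.67. Without members in division Hist1h2ae was -0.047, Lgals1 -0.40, Asf1b -0.37, Crip1 -0.24 and Anxa2 -0.40, and without mixed barcodes as well Hist1h2ae was -0.73, Lgals1 -0.072 and Tmem176a 0.78. In the class contrast after thinning Lyz2 was -0.35 and Ly6c2 -0.14 in the Vehicle library, Gata3 -0.60 in the Glutoborin library and Il4ra 0.20 in the Vehicle library. Lyz2 was -0.0073 and -0.20 without mixed barcodes, and without members in division as well Gzma was -0.71 and Lyz2 -0.00036 in the Glutoborin library.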
